A study of Mus musculus with 8 samples.

Results

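The T cell receptor complex and its coreceptors were examined in regenerating mouse muscle as a set of 10 genes chosen by name. These were the CD3 chain genes Cd3g, Cd3d, Cd3e and Cd247, the coreceptor genes Cd4 and Cd8a, the surface protein genes Il7r and Thy1, and the kinase genes Lck and Zap70. For 9 of the 10 the array annotation had 1 row naming that gene alone, among 19752 genes so named in the series. Lck had none and is not analysed here. After rows of low mean intensity were left out, 8 of the 10 genes were tested among 15007 genes. Cd3d lay below the filter on dim rows, which was set at a log2 intensity of 6.35, so it has values but no test in the comparison across all genes.

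The series compared male C57BL/6 mice that carried Foxp3-Cre with a floxed ST2 gene (ST2 flox) with mice that carried Foxp3-Cre and wild-type ST2 (ST2 WT), to ask about the role of ST2, the interleukin-33 receptor, on regulatory T cells as muscle repairs. Foxp3-Cre was present in both groups, and it acts in cells that express Foxp3, so the deletion is directed at regulatory T cells and not at the other T cells or the muscle itself. Tibialis anterior muscle was frozen with a cold metal probe for 8 seconds and collected whole on day 8, at an age given as 2 months in the series text and as 10 weeks in the sample labels. Each group held 4 samples, numbered 1 to 4, with 1 Affymetrix Mouse Gene 1.0 ST array per sample. Separate animals are not stated, so every p-value below measures the spread between these samples.

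The T cell receptor recognises peptide on major histocompatibility complex molecules but has almost no signalling tail of its own. It travels to the cell surface together with the CD3 chains gamma, delta, epsilon and zeta, whose tails are phosphorylated by Lck once the receptor is engaged, and the phosphorylated tails recruit Zap70. CD4 and CD8 bind the presenting molecule and bring Lck to the complex. In injured muscle T cells arrive after the first wave of myeloid cells and are a small part of the tissue, so their transcripts are diluted in RNA from whole muscle. In such bulk RNA, fewer T cells and less RNA per T cell cannot be told apart.

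Cd3g, Cd3d and Cd3e are neighbours on mouse chromosome 9, and the region just upstream of each start site is shown here because Cd3g and Cd3d lie head to head. The row of Cd3d was below the filter on every array, so the values do not show whether Cd3g and Cd3d changed unequally. In the RefSeq table of GRCm38.p6, the start sites of Cd3g and Cd3d used there were 1355 bases apart on opposite strands, and that of Cd3e was 27825 bases from that of Cd3d. The 250 bases upstream of each start are given 5′ to 3′ on the strand of the gene. The letters GGAAG on either strand, 1 longer form of the GGAA core recognised by ETS family transcription factors, are in capitals. The shorter GGAA, which also occurs upstream of Cd3g, was not counted. They span chr9:44980432-44980681 on the minus strand for Cd3g, chr9:44981536-44981785 on the plus strand for Cd3d and chr9:45009612-45009861 on the minus strand for Cd3e.
Cd3g: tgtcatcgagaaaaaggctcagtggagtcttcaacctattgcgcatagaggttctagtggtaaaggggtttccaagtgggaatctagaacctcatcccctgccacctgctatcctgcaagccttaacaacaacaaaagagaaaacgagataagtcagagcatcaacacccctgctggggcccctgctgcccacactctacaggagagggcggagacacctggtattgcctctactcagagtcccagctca
Cd3d: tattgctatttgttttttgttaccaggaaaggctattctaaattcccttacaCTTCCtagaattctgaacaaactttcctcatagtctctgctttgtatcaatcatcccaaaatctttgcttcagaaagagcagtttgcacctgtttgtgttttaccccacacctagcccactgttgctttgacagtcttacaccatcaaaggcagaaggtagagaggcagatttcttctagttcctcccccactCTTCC
Cd3e: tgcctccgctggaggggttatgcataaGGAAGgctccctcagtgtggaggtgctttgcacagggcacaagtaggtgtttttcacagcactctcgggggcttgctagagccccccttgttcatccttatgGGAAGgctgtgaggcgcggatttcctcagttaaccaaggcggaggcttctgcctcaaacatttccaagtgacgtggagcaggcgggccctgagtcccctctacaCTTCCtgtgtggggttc
The GGAAG letters occurred 0 times upstream of Cd3g, 2 times upstream of Cd3d and 3 times upstream of Cd3e, and they are common, with at least 1 match in 64.1% of the 32851 promoter windows of the same length. All motifs were searched on both strands. TATAAA was found in none of the 3 windows, against 12.4% of all windows, and neither was the RUNX motif TGTGGT, present in 14% of all windows. The E-box CANNTG occurred 3 times upstream of Cd3g and 1 time each upstream of Cd3d and Cd3e, in a background of 66.2% of windows. The GATA motif AGATAA occurred 1 time upstream of Cd3g and in neither of the other windows, with a background of 9.99%, and the TCF/LEF motif CTTTGA occurred 2 times upstream of Cd3d alone, with a background of 13.8%. None of these motifs contains another, although their matches can overlap, and a match describes the sequence without showing a bound site.

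The arrays were alike in overall signal, with median intensities of 184.9 to 189.2. Across genes, which are not independent replicates, the median correlation of each array with the other 7 lay between 0.988 and 0.993. The tissue label was borne out by the markers, since the mean log2 intensity of 7 skeletal muscle genes lay between 13.17 and 13.34 on every array. Of 11 T cell markers fixed by name, 7 had a row naming them alone and 6 were tested, with a mean log2 level of 6.93 to 7.28 on the flox arrays and 6.89 to 6.92 on the WT arrays. Those tested were Cd2, Cd5 and Lat beside Cd3g, Cd3e and Cd247 of the set itself, so this mean is not independent of the Cd3g values. Flox array 4 was the lowest flox array for Cd3g, Cd4, Thy1 and the macrophage markers, but not for Cd3e, Cd247, Cd8a, Il7r or Zap70, and WT array 4 carried keratinocyte genes at a mean log2 level of 8.48 for 5 markers, against 6.79 to 7.21 on all other arrays. For the genes of the complex and the pathway groups in which flox array 4 was lowest, differences are given with and without it. For a gene on which it was the lowest flox array, leaving it out must raise the flox mean and so the difference. Its median correlation with the other 7 arrays was 0.990, within the range given above. Leaving it out nevertheless moved genes across the whole table in both directions. Genes at a limma unadjusted p under 0.05 went from 569 to 3012 of 15007, with 1587 higher and 1425 lower in flox. Leaving out any other single array gave 245 to 576.

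Cd3g, which encodes the gamma chain of CD3, had a higher mean in ST2 flox muscle but not on every flox array. Its log2 intensity was 7.63, 7.92, 7.36 and 6.27 on flox arrays 1 to 4 and 6.32, 6.35, 6.51 and 6.60 on WT arrays 1 to 4. On the linear scale this was 198, 242, 164 and 77.3 in flox against 80.1, 81.4, 91.2 and 97.3 in WT. Flox arrays 1 to 3 were above every WT array and flox array 4 was below every one, so the groups overlapped. WT arrays 1 and 2 and flox array 4 were at or below the filter value of 6.35, so the lower levels of this gene are close to the dim end of the table. The group means were 7.29 ± 0.72 in flox and 6.45 ± 0.13 in WT (SD, n = 4 each), a difference of 0.85 log2 (SE 0.28, 95% interval 0.22 to 1.48) or 1.80-fold.

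That difference was the largest in size of any of the 15007 genes tested, but it did not pass the test: limma gave an unadjusted p of 0.0131 and an adjusted p of 0.912, and the exact two-sided permutation p was 0.143. The spread of Cd3g among the flox arrays exceeded that of 99.8% of genes. Over all genes limma called 0, or 0% of those tested, with 569 at an unadjusted p under 0.05. Without flox array 4 the Cd3g difference was 1.19 (SE 0.12) and passed (limma adjusted p = 0.0271), one of 2 genes called in that fit, or 0.0133% of all genes. The other gene called was the lysosomal protease gene Ctsh. Flox array 4 was the lowest array for Cd3g, so leaving it out raised the Cd3g difference by construction. In the 7 fits that left out another single array, the difference ran from 0.64 without flox array 2 to 0.90 without WT array 4, and it was called in none of them.

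**Figure D1:**
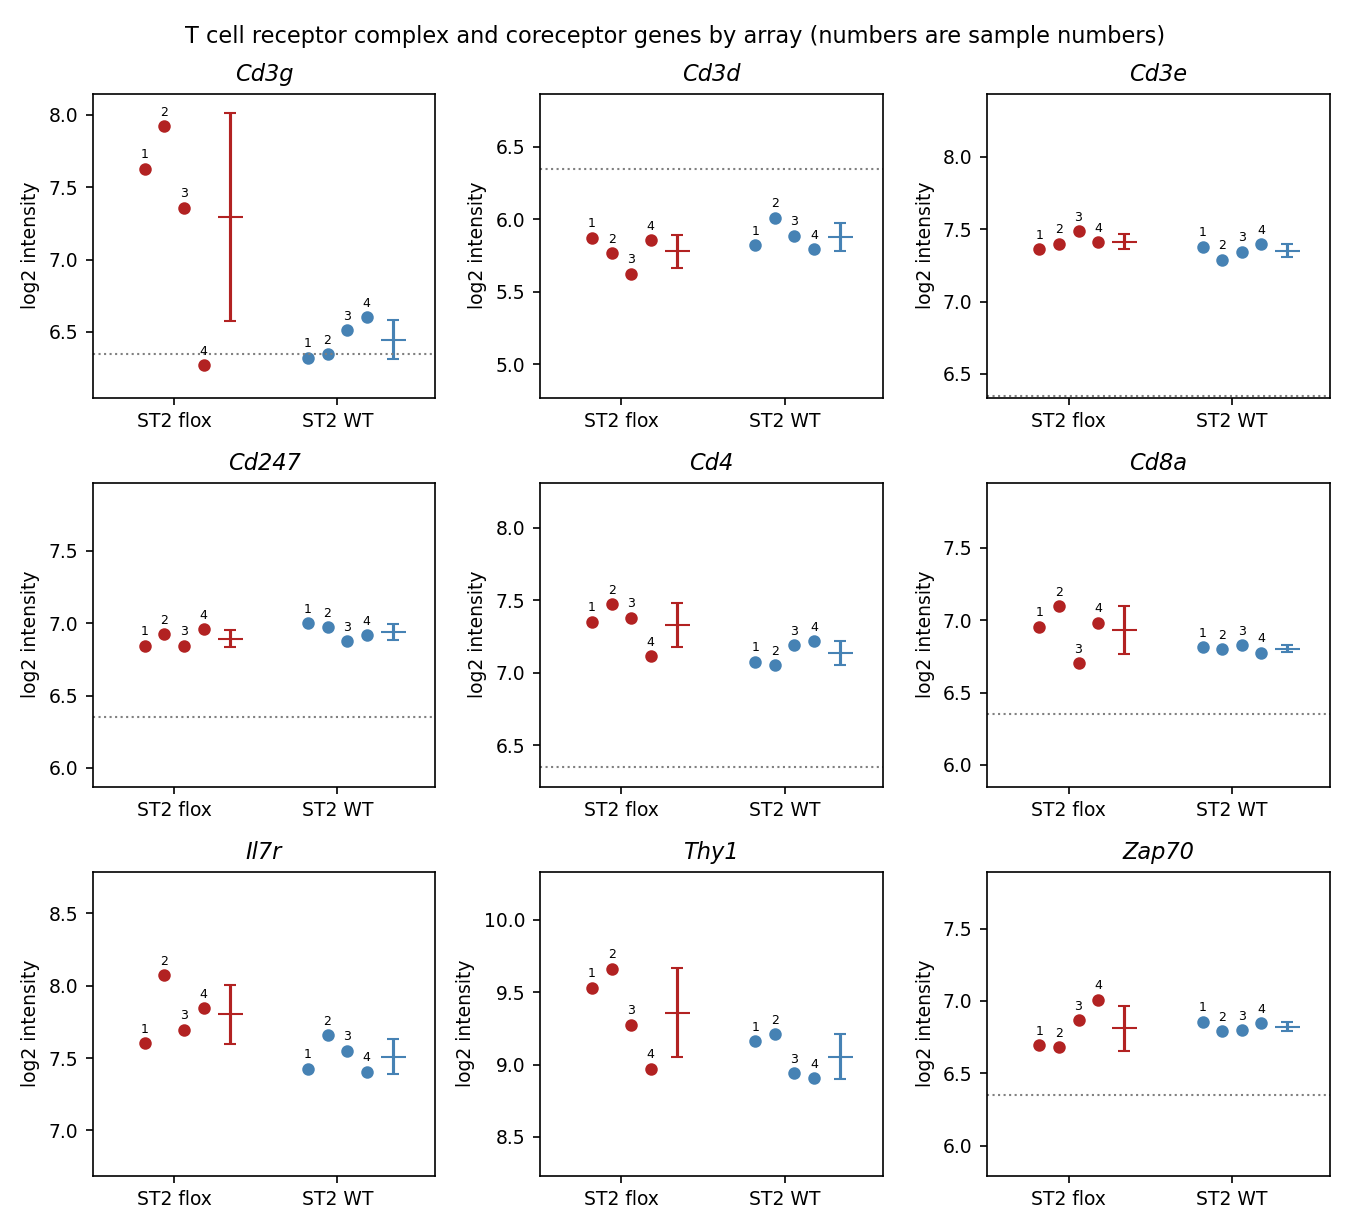
Log2 intensity of the 9 genes with a row of their own, 1 panel per gene, with 1 point per array labelled by sample number, and beside them the mean and SD of the 4 arrays of each genotype. All panels span the same height of log2 units, and the dotted line marks the filter at 6.35 where it falls within the panel. Cd3g spreads from 6.27 to 7.92 in flox, while Cd3e and Cd247 hardly move.

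The rows of Cd3e and Cd247 did not show the array pattern of Cd3g, and that of Cd3d was too dim to compare. Cd3e encodes the epsilon chain, which pairs with gamma and with delta in the complex. Its log2 intensity was 7.36, 7.40, 7.48 and 7.41 on flox arrays 1 to 4 and 7.38, 7.29, 7.34 and 7.40 on WT arrays 1 to 4. All 8 arrays lay within 0.20 log2 of one another and the groups overlapped. The difference was 0.06 (SE 0.05, 95% interval -0.06 to 0.18; limma adjusted p = 0.912), and it was 0.04 without flox array 3.

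Cd247 encodes the zeta chain, which carries most of the signalling motifs of the complex. Its log2 intensity was 6.84, 6.92, 6.84 and 6.96 on flox arrays 1 to 4 and 7.00, 6.97, 6.87 and 6.92 on WT arrays 1 to 4. The groups overlapped, and the highest array was WT array 1. The difference was -0.05 (SE 0.06, 95% interval -0.17 to 0.08; limma adjusted p = 0.918). With single arrays left out it ran from -0.07 without WT array 3 to -0.03 without WT array 1, and it was -0.07 without flox array 4.

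Cd3d, the gene of the delta chain, was the 1 gene whose row lay below the filter. It read 5.87, 5.77, 5.63 and 5.86 on flox arrays 1 to 4 and 5.82, 6.01, 5.89 and 5.79 on WT arrays 1 to 4, all below 6.35. The lowest array was flox array 3, an array on which Cd3g was high, and the groups overlapped. The difference was -0.10 (exact permutation p = 0.286). With no filter on dim rows the gene entered the fit with an SE of 0.08 and a limma adjusted p of 0.900, and its low signal limits what this row can show.

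**Figure D2:**
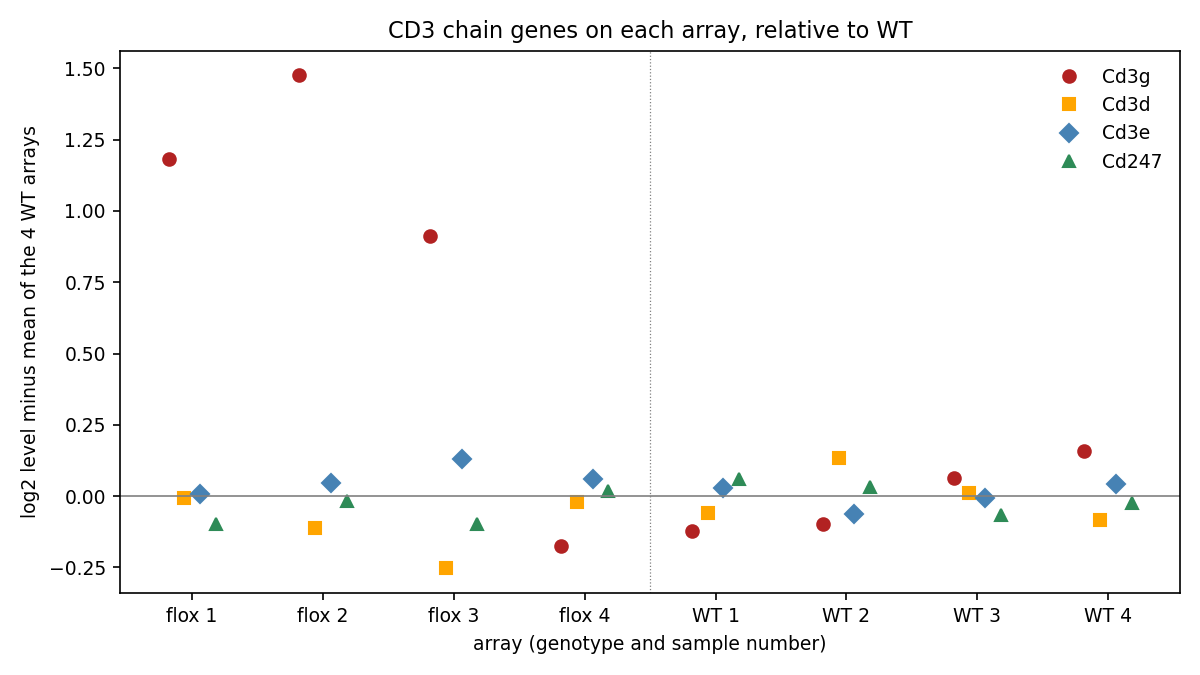
Log2 level of the 4 CD3 chain genes on each of the 8 arrays, as the difference from the mean of the 4 WT arrays, with flox arrays to the left of the dotted line. Cd3g is 0.91 to 1.48 above the WT mean on flox arrays 1 to 3 and 0.17 below it on flox array 4. The other rows stay between -0.25 and 0.13 on all arrays, but that of Cd3d is below the filter, where a change may not be visible.

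The chains were set against one another through their differences within each array, which asks whether they changed unequally and does not compare their levels. Cd3g minus Cd3e was 0.27, 0.52, -0.13 and -1.14 on flox arrays 1 to 4 and -1.06, -0.94, -0.83 and -0.79 on WT arrays 1 to 4. Flox arrays 1 to 3 were again above every WT array and flox array 4 below every one. The genotypes differed by 0.79 (SE 0.37, exact two-sided permutation p = 0.143; 0.214 after Benjamini-Hochberg adjustment over the 6 pairs of chains).

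Cd3g minus Cd247 differed by 0.90 (SE 0.39, exact permutation p = 0.143, adjusted 0.214). The pairs with Cd3d are given as values of a row that was below the filter on all 8 arrays, where a change of the transcript may not be visible, so they do not show how the delta chain compares. Cd3g minus Cd3d differed by 0.95 (SE 0.39, exact permutation p = 0.114, adjusted 0.214). The pairs without Cd3g differed by less: Cd3e minus Cd247 by 0.11 (SE 0.06, exact permutation p = 0.143, adjusted 0.214), Cd3d minus Cd3e by -0.16 (SE 0.11, exact permutation p = 0.229, adjusted 0.274) and Cd3d minus Cd247 by -0.05 (SE 0.07, exact permutation p = 0.543). None of the 6 pairs passed 0.05, where 4 arrays against 4 cannot give an exact p below 0.0286. Without flox array 4 each of the 3 pairs with Cd3g reached 0.0286, the smallest p that 4 against 3 arrays allow, at differences of 1.13 to 1.31, and the adjusted p was 0.0571. In these pairs flox arrays 1 to 3 already lay above every WT array, so leaving out flox array 4 fixed that p in advance. On flox arrays 1 to 3 Cd3g minus Cd3e and Cd3g minus Cd247 were higher than on any WT array, and the test did not separate the genotypes.

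The genes that flank the CD3 genes were looked at in the same way, after the values of Cd3g were known. Among the tested neighbours, Ube4a differed by -0.01 (SE 0.09), Mpzl2 by -0.05 (SE 0.07), Mpzl3 by -0.06 (SE 0.06) and Jaml by 0.03 (SE 0.06), each with a limma adjusted p of at least 0.912. In none of these 4 did flox arrays 1 to 3 all lie above the WT arrays, as they did for Cd3g. The group means of Mpzl2, Mpzl3 and Jaml were 6.41 to 6.63, close to the filter at 6.35, where a change may not be visible.

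The coreceptor Cd4, carried by helper and regulatory T cells, had the same arrays high as Cd3g, on a smaller scale. Its log2 intensity was 7.35, 7.47, 7.38 and 7.11 on flox arrays 1 to 4 and 7.08, 7.05, 7.19 and 7.22 on WT arrays 1 to 4. Flox arrays 1 to 3 lay above every WT array, and flox array 4 lay among the WT arrays. The difference was 0.20 (SE 0.08, 95% interval 0.01 to 0.38), or 1.15-fold, with a limma unadjusted p of 0.0369, an adjusted p of 0.912 and an exact permutation p of 0.0857. Without flox array 4 it was 0.27 (SE 0.06, limma adjusted p = 0.129).

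Cd8a encodes the alpha chain of the coreceptor of cytotoxic T cells. Its log2 intensity was 6.95, 7.10, 6.70 and 6.98 on flox arrays 1 to 4 and 6.81, 6.80, 6.83 and 6.77 on WT arrays 1 to 4. The WT arrays were close together, and flox arrays 1, 2 and 4 lay above them while flox array 3 lay below. The difference of 0.13 (SE 0.08, 95% interval -0.05 to 0.31; limma adjusted p = 0.912) changed with single arrays, to 0.08 when flox array 2 was left out and 0.21 when flox array 3 was. The array that was low for Cd8a was thus not the one that was low for Cd4 and Cd3g. Cd8b1, the gene of the partner chain, differed by 0.21 (SE 0.13, limma adjusted p = 0.912), with 6.86, 7.00, 6.50 and 6.35 on flox arrays 1 to 4 and 6.35 to 6.55 on the WT arrays, and by 0.32 without flox array 4 (limma adjusted p = 0.165).

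Il7r encodes the interleukin-7 receptor alpha chain, which sustains naive and memory T cells and innate lymphoid cells. Its log2 intensity was 7.60, 8.07, 7.70 and 7.84 on flox arrays 1 to 4 and 7.43, 7.66, 7.55 and 7.41 on WT arrays 1 to 4. Only flox array 1 and WT array 2 kept the groups from separating, and flox array 4 was the second highest of the 8 arrays. The difference was 0.29 (SE 0.10, 95% interval 0.07 to 0.52), or 1.23-fold (limma unadjusted p = 0.0159, adjusted p = 0.912; exact permutation p = 0.0571). Leaving out flox array 2 gave 0.20, leaving out flox array 1 gave 0.36 and leaving out flox array 4 gave 0.28.

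Thy1, a surface glycoprotein gene of T cells that fibroblasts and neurons also express, read 9.53, 9.66, 9.27 and 8.97 on flox arrays 1 to 4. The WT arrays read 9.16, 9.21, 8.94 and 8.91. Flox arrays 1 to 3 were the 3 highest of all, and flox array 4 lay within the range of WT. The difference was 0.30 (SE 0.14, 95% interval -0.003 to 0.61; limma unadjusted p = 0.0518, adjusted p = 0.912; exact permutation p = 0.114), and leaving out flox array 2 or 4 gave 0.20 or 0.43. The 6 fibroblast markers fixed by name had a mean log2 level of 11.27 to 11.80 on the flox arrays and 11.45 to 11.66 on the WT arrays, with the lowest value on flox array 4, and their part in the Thy1 values was not tested.

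Zap70, the kinase that docks on phosphorylated CD3 tails, was level between the genotypes and ran against Cd3g within flox. It read 6.69, 6.68, 6.87 and 7.01 on flox arrays 1 to 4 and 6.86, 6.79, 6.80 and 6.85 on WT arrays 1 to 4. The highest array was flox array 4 and the lowest were flox arrays 1 and 2, the reverse of the order for Cd3g. The difference was -0.01 (SE 0.08, 95% interval -0.18 to 0.16; limma adjusted p = 0.986), and its sign turned with quantile normalization (0.03), with cyclic loess (0.03) and without flox array 1 (0.03) or 2 (0.03).

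**Figure D3:**
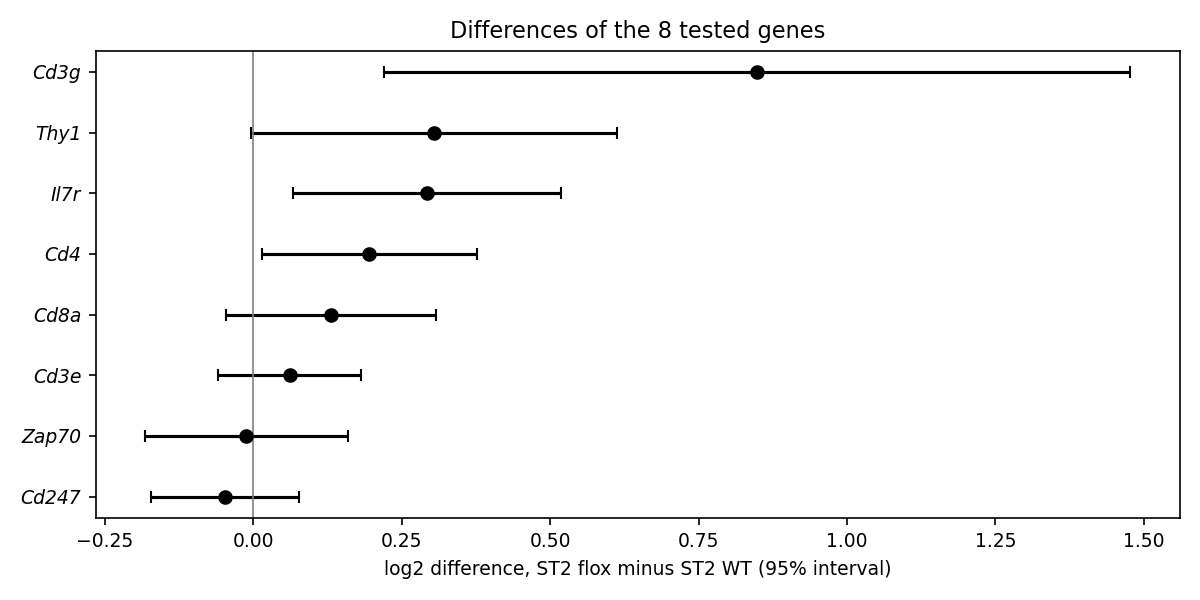
Log2 difference, ST2 flox minus ST2 WT, for the 8 genes tested, with the 95% interval from limma over 4 arrays in each group. Cd3g has the largest value (0.85) and the widest interval (0.22 to 1.48), and the intervals of Cd3e, Cd247, Cd8a, Thy1 and Zap70 include 0.

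Counted together, 6 of the 8 tested genes had a higher mean in flox, where 48.8% of all genes did. An unadjusted limma p under 0.05 with a higher mean was found for 3 of the 8 (Cd3g, Cd4 and Il7r), against 2.03% of all genes tested, and 0 of the 8 had a lower mean at that p, against 1.77%. For 0 of the 8 did every flox array lie above every WT array, which 1.14% of all genes did, and for 0 of the 8 did every flox array lie below every WT array, against 0.826%. The median difference of the 8 was 0.16, against -0.0025 for all genes. The set was named with earlier results of these data in view, and it varies with a few arrays, so these counts describe it and are not a test. In the fit without flox array 4, Cd3g, Cd4, Il7r and Thy1 had an unadjusted p under 0.05 with a higher mean, where 10.6% of all genes did.

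Markers of several other cell types also varied between the arrays. All 11 of 11 macrophage and monocyte markers tested had a higher mean in flox, where 48.8% of all genes did, averaging 9.96, 10.03, 9.67 and 9.22 log2 on flox arrays 1 to 4, against 9.46 to 9.65 in WT. Flox array 2 was highest and flox array 4 lowest of all 8, as for Cd3g. On the scale of differences from the WT mean, flox arrays 1 to 4 stood at 0.44, 0.51, 0.15 and -0.30 for the markers, at 0.48, 0.61, 0.22 and -0.08 for Thy1 and at 0.22, 0.34, 0.25 and -0.02 for Cd4. The median difference of the 11 markers was 0.20, and 0.37 without flox array 4. Endothelial markers had a higher mean in flox for 5 of 5, averaging 10.01 to 10.20 on the flox arrays and 9.95 to 10.07 in WT, with a median difference of 0.09, and 0.16 without flox array 4. Dendritic cell markers had a higher mean for 5 of 6, averaging 7.25 to 7.42 in flox and 7.21 to 7.29 in WT. Their median difference was 0.13, and without flox array 4 it was 0.08, with 4 of 6 higher. The smallest p-values were those of the integrin gene Itgax (0.16, SE 0.07, limma unadjusted p = 0.0360) and the cytokine receptor gene Flt3 (0.24, SE 0.11, limma unadjusted p = 0.0494). Batf3 was nearly level (0.02, SE 0.07) and Zbtb46 was lower (-0.06, SE 0.07). Other lists did not share this direction as fully. Fibroblast markers had a higher mean in flox for 4 of 6, with a median difference of 0.06. Skeletal muscle markers had one for 1 of 7 (median -0.01) and keratinocyte markers, high on WT array 4, for 0 of 5 (median -0.43). The part of any of these cell types in the Cd3g, Cd4 and Thy1 values was not tested.

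**Figure D4:**
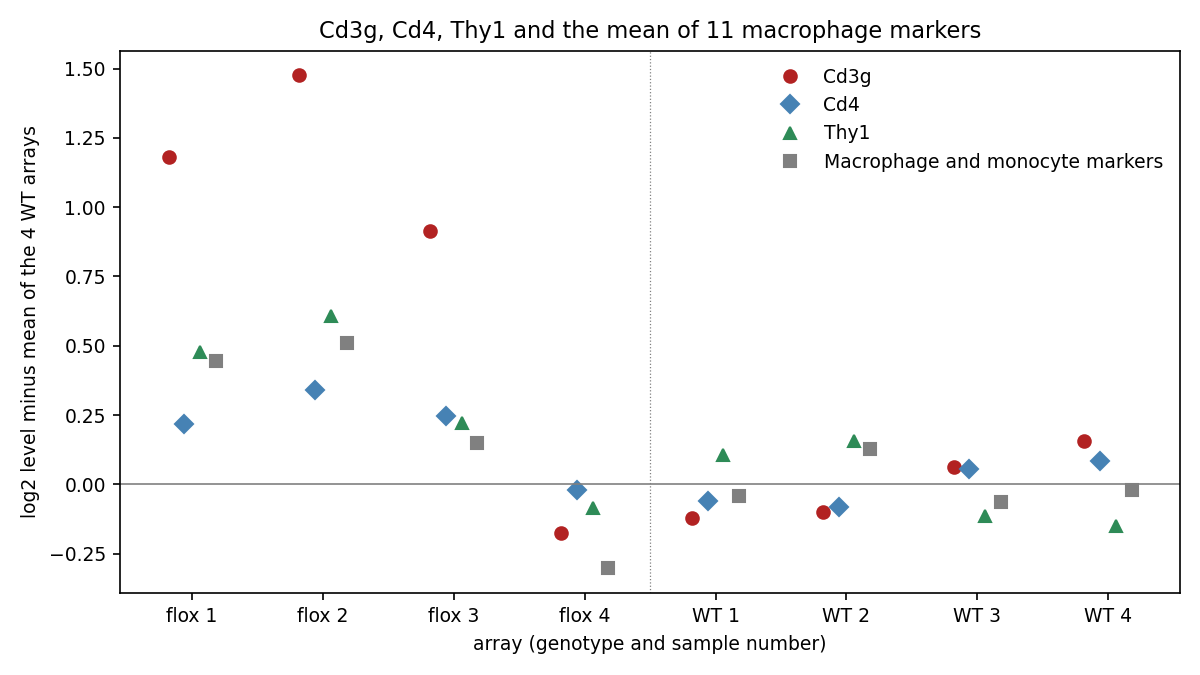
Log2 level on each array minus the mean of the 4 WT arrays, for Cd3g, Cd4, Thy1 and the mean of 11 macrophage and monocyte markers. On flox arrays 1 to 3 all of these are above the WT mean and on flox array 4 all are below it, with Cd3g furthest from it on each of the former (up to 1.48) and the macrophage markers furthest on flox array 4 (-0.30).

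Markers of other lymphoid cells were thinly measured. Of 9 natural killer and innate lymphoid markers 3 were tested, with a mean log2 level of 7.26 to 7.54 in flox and 7.23 to 7.35 in WT, and the defining genes Ncr1 and Klrb1c lay below the filter. Of these 3, Nkg7, a granule protein gene of cytotoxic lymphocytes, read 8.30, 8.38, 7.81 and 7.29 on flox arrays 1 to 4 and 7.32 to 7.66 in WT, with flox arrays 1 to 3 above every WT array and flox array 4 below every one, as for Cd3g. Nkg7 differed by 0.46 (SE 0.21, limma unadjusted p = 0.0501), and by 0.68 without flox array 4 (limma adjusted p = 0.122), while Prf1, the perforin gene, differed by -0.08 (SE 0.08) and the transcription factor gene Tbx21 by -0.01 (SE 0.08). Of 7 B and plasma cell markers 2 were tested, at 7.03 to 7.25 in flox and 7.00 to 7.16 in WT, with Ms4a1 and Cd79a below the filter. Of 5 gamma delta T cell markers 2 were tested, at 7.73 to 8.03 in flox and 7.89 to 7.93 in WT, and no receptor constant gene had a row naming it alone. Of 6 regulatory T cell markers 4 were tested, at 7.65 to 7.75 in flox and 7.63 to 7.74 in WT.

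Further genes of the receptor pathway were taken from a list of 61 names, of which 48 had a row naming them alone and 40 were tested. A higher mean in flox was found for 33 of the 40, where 48.8% of all genes had one, and 7 had a lower mean. An unadjusted limma p under 0.05 was found for 3 higher genes and 0 lower genes, against 2.03% and 1.77% of all genes, and 0 passed after adjustment over all genes. The median difference was 0.09, against -0.0025 for all genes. Averaged over the 40 genes, log2 intensity was 7.85, 7.92, 7.78 and 7.67 on flox arrays 1 to 4, against 7.69 to 7.72 in WT, so flox array 4 was again the lowest of the 8. Without flox array 4, 31 of the 40 had a higher mean, where 49.1% of all genes did, and the median difference was 0.12.

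By role, with the same background of 48.8%, the proximal kinases and phosphatases had a higher mean for 6 of 7, with a median of 0.14 (0.24 without flox array 4). They include Fyn, a Src family kinase that acts beside Lck, which read 9.48, 9.52, 9.36 and 9.15 on flox arrays 1 to 4 and 8.97 to 9.25 in WT (0.22, SE 0.09, limma unadjusted p = 0.0372; 0.30 without flox array 4), and Prkcq, a protein kinase C that skeletal muscle also makes (-0.04, SE 0.07). The adaptors had a higher mean for 7 of 8, with a median of 0.08 (6 of 8 and 0.10 without flox array 4). Lax1, an adaptor that restrains antigen receptor signalling, was the 1 gene of the 40 with every flox array (7.004 to 7.14) above every WT array (6.92 to 7.003), where 1.14% of all genes had this pattern and the nearest arrays were almost level, at a difference of 0.13 (SE 0.05, limma unadjusted p = 0.0394). Sit1, another inhibitory adaptor, had the smallest p among the lower genes (-0.17, SE 0.09, limma unadjusted p = 0.0765).

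The effectors had a higher mean for 7 of 8, with a median of 0.07 (0.09 without flox array 4), and the costimulatory and adhesion receptors for 7 of 8, with a median of 0.11 (6 of 8 and 0.16 without flox array 4). Lineage factors and other T cell genes had a higher mean for 5 of 8, with a median of 0.08 (0.10 without flox array 4). Among them Ikzf1, a zinc finger factor of blood cells, read 7.52, 7.52, 7.31 and 7.11 on flox arrays 1 to 4 and 7.08 to 7.24 in WT (0.22, SE 0.09, limma unadjusted p = 0.0392; 0.30 without flox array 4). Ccr7, a chemokine receptor of naive T cells and mature dendritic cells, differed by 0.22 (SE 0.10, limma unadjusted p = 0.0521). Bcl11b, a factor that fixes T cell identity, differed by -0.11 (SE 0.10) and S1pr1, a receptor that lets lymphocytes leave lymph nodes and is strong in endothelium, by -0.09 (SE 0.08; -0.04 without flox array 4). Several of these genes, such as Ikzf1, are also expressed by myeloid cells.

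**Figure D5:**
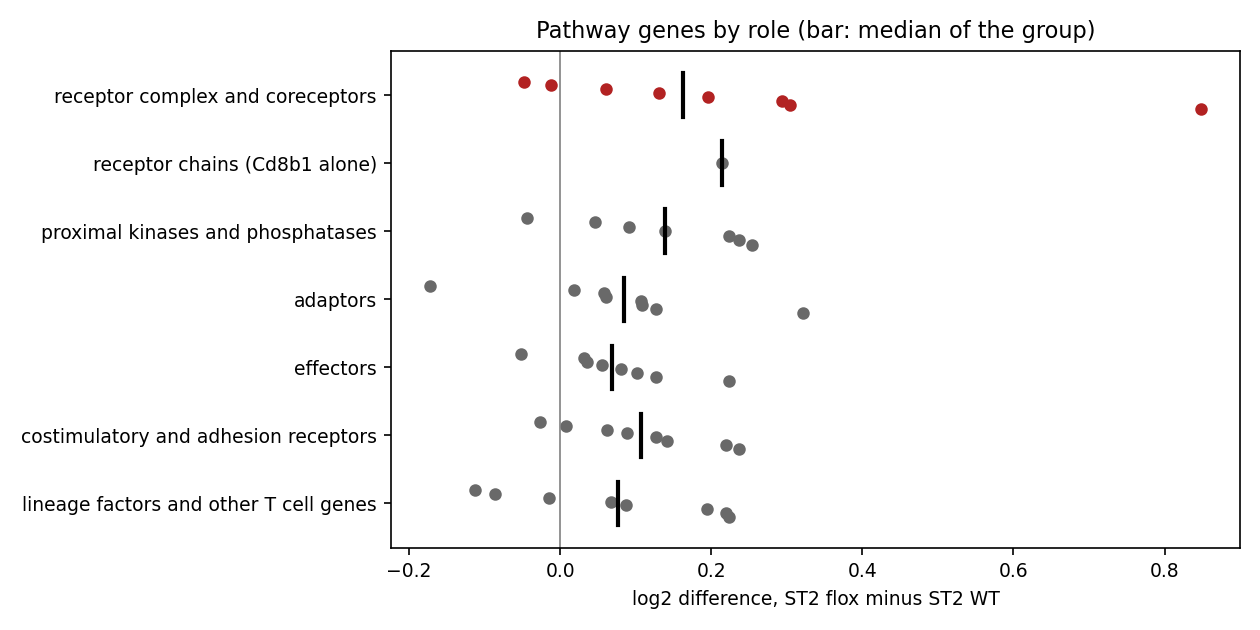
Log2 difference, ST2 flox minus ST2 WT, for the 8 tested genes of the complex and coreceptors (red) and the 40 other pathway genes by role (grey), 1 point per gene, with the median of each role as a black bar. Each median lies to the right of 0, between 0.07 and 0.21, and Cd3g at 0.85 stands apart from every other point. The receptor chain row holds Cd8b1 alone.

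The genes whose levels over the 8 arrays were most like each CD3 chain differed from chain to chain. Likeness was the Pearson correlation over 8 arrays, ranked over all genes tested and given as a description. Closest to Cd3g were Scyl2 (r = 0.98), Septin6, which encodes a cytoskeletal septin, Mindy3, B3glct and Cyria (r = 0.98), and each of these differed by only 0.11 to 0.17 log2 between genotypes. Closest to Cd3e were Igf2r, the mannose 6-phosphate receptor (r = 0.98), Tspan9, the chaperone gene Hspa8, the lamin gene Lmnb1 and Mir134 (r = 0.92). Closest to Cd247 were C130074G19Rik (r = 0.97), the transcription factor gene Sox5, Il11, Msx3 and AU019990 (r = 0.95). None of these 15 genes was another gene of the complex. Within the set, the correlation of Cd3g was 0.96 with Cd4, 0.86 with Thy1, 0.52 with Il7r and 0.44 with Cd8a. It was 0.36 with Cd3e, -0.61 with Cd247 and -0.70 with Zap70. The 8 arrays are the same for each pair, and for Cd3g the correlation turns mainly on flox arrays 1 to 3 against the rest.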

How the data were processed

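RNA from 8 whole muscles was hybridised to 1 array each. The authors deposited probeset intensity values, made with RMA in Affymetrix Power Tools per the submitters' processing notes; no version or genome build is given in the sources used here. Values were on a linear scale (5.814 to 19080) and their log2 was taken with no pseudocount. RMA compresses changes of dim probesets. Of 24922 rows, 21425 had 1 gene symbol in the platform annotation, 1399 several and 2098 none. Rows with a mean below the 25th percentile (6.35) were left out and the brightest row per gene was kept. The fit of flox against WT used limma 3.58.1 under R 4.3.3 (threshold 0.05, Benjamini-Hochberg over 15007 genes), tested on simulated data. CD3 chains were compared by exact two-sided permutation over 70 assignments. The number of arrays limits the precision. No array was a copy of another (at most 14 identical values). Promoter windows were found for 8 of the 10 genes.

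The genes named were the 10 members, the 4 pathway genes with the smallest p in each direction, any whose groups did not overlap, and the 5 genes most like Cd3g, Cd3e and Cd247. Cd8b1, the flanking genes, Ctsh, Nkg7, Prf1, Tbx21, Itgax, Flt3, Batf3 and Zbtb46 were named after their values were seen. Members and lists were chosen with earlier results of these data known. Alternatives covered the filter, the normalization, the rows per gene, the prior, the sample number as a block and each array left out.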

Additional observations from a re-analysis of the deposited data

Results flagged for a closer look

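Keratinocyte markers on WT array 4 stood far from the other WT arrays. The mean log2 level of the 5 tested markers was 8.48 there, and 7.08 on the next highest WT array, a gap of 91.7% of the range of the group. This was the 1 group of 4 arrays past the limit of Dixon's test among 98 examined, where chance would pass about 1 in 20. The genes of the receptor complex on WT array 4 lay within or close to the range of the other WT arrays. It was the highest WT array for Cd3g (6.60), Cd3e (7.40) and Cd4 (7.22). It was the lowest for Cd3d (5.79), Cd8a (6.77), Il7r (7.41) and Thy1 (8.91). Flox array 4, although low for Cd3g at 6.27 against 7.36 on the next flox array, did not pass the limit.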

How the results depend on the processing

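Over 16 alternatives the number of genes past the threshold was 0, except that 2 passed without flox array 4 (0 to 2 over the fits without each array). The Cd3g difference kept its sign in all 15 alternatives that could be run and was called in the 1 without flox array 4 (1.19; 0.64 to 1.19 over the 8 fits, limma adjusted p 0.0271 to 1.00). Zap70 turned from -0.011 to 0.032 with quantile normalization, 0.031 with cyclic loess, and -0.077 to 0.033 over the fits without each array. The filter at the 50th percentile removed all members but Il7r and Thy1 and left 16 of 19 pathway genes higher. The 6 differences between CD3 chains kept their direction in each of 13 alternatives, ranks included (the row of Cd3d is below the filter), and none passed 0.05 after adjustment (0.0571 to 0.411 for the 3 with Cd3g). Whether the sample numbers pair the samples was not settled by the values. With the mean of its group taken off each gene, correlations of same-numbered arrays across genes were -0.002, 0.35, 0.25 and 0.04. The WT array most like flox arrays 1 to 4 on that scale was number 2, 2, 4 and 3. With the replicate block the Cd3g difference of 0.85 had a limma adjusted p of 0.871, 0 genes passed, and Cd3g minus Cd3e gave an exact sign-flip p of 0.25 where 4 pairs allow no less than 0.125. The count of pathway genes was tried under the same alternatives, and the other lists without flox array 4, after seeing the data.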

Other observations

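The spread of the genes within a genotype differed widely. Cd8a and Zap70 were among the steadier genes of the WT arrays, with SDs of 0.02 and 0.03 (the 2.73rd and 8.58th percentile of all genes), against SDs of 0.17 and 0.16 on the flox arrays. Cd3e was steady in both groups, with SDs of 0.05 and 0.05. The larger spread in flox held for each of the 8 tested genes and was not tested.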
